A study of Mus musculus with 8 samples.

Results

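Mitosis and spindle genes encode the kinases, motors and scaffolds that condense chromosomes, build the spindle, hold anaphase back until chromosomes are attached and then cut the cell apart. Here they are a set of 35 named genes. For each, the probe set of a mouse expression array whose annotation names that gene alone was taken, and the brightest by its mean over all arrays where there were several. In this way 34 of the 35 were measured, out of 18193 genes in all; Ccnb1 was not analysed here. The 34 genes have 73 probe sets of their own, and on every array all 34 chosen probe sets lay above the median of all values (2.73 on the log2 scale).

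The arrays compare mouse embryonic fibroblasts (connective tissue cells grown out of embryos) of 2 genotypes on the C57BL/6 strain: 4 Cebpg-/- samples, which lack both copies of the gene for the leucine zipper transcription factor C/EBPγ, and 4 wild-type (WT) samples. Both kinds of cells were taken at E13.5, passaged 3 times, plated at the same density and collected 48 hours after plating, with no other treatment named. The labels call the samples biological replicates but do not say that each came from its own embryo, and the p-values reflect only how far these samples scatter, which may be technical. Each value is an RMA expression value on the log2 scale, made by the authors, 1 array per sample.

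Mitotic genes are transcribed late in the cell cycle, in G2 and at entry into mitosis, and are shut off in G1 and in resting cells. Their promoters commonly carry a CCAAT box, bound by the factor NF-Y, and a short element called CHR. Through CHR a complex built on MuvB proteins represses them with p130 and activates them with B-MYB and FOXM1. Their joint level in a culture of cells that are not synchronised is therefore widely read as a gauge of how many cells are cycling. In RNA from whole cultures, fewer cells in mitosis and less mitotic RNA per cell cannot be told apart.

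The promoters of Kif11, Bub1b and Mki67 are shown because these genes, with Ccna2, had the lowest p-values of the set. Each line gives the 250 bases before the RefSeq start (build GRCm38.p6), 5′ to 3′ on the strand of the gene, with matches to CHR (TTTGAA or TTCGAA) and to the CCAAT box (CCAAT) on either strand in capitals. The Kif11 sequence is chr19:37376132-37376381 on the plus strand, the Bub1b sequence chr2:118597961-118598210 on the plus strand and the Mki67 sequence chr7:135716380-135716629 on the minus strand.
Kif11: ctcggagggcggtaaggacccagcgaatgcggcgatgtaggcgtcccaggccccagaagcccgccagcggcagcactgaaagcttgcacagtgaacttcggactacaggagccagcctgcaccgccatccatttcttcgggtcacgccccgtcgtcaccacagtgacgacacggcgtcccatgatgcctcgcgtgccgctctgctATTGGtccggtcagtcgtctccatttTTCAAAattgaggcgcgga
Bub1b: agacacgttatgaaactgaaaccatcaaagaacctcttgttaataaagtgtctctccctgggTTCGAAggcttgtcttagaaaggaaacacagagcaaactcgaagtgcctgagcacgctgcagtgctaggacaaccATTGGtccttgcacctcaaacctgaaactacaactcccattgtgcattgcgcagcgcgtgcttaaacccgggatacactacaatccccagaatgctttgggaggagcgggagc
Mki67: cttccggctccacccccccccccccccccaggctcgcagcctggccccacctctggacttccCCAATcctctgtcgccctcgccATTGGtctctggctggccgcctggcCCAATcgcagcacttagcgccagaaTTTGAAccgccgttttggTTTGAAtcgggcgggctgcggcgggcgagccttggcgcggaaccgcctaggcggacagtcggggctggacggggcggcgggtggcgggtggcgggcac

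In the Kif11 promoter a CCAAT match on the opposite strand begins at position -45 and a CHR match, also on the opposite strand, at -19, counted from the start of the gene. In Mki67 the CHR matches begin at -116 and -98 and CCAAT matches at -188, -166 and -141. In Bub1b 1 CHR match begins at -188 and another at 41, past the printed stretch.

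The same search over the window from 250 bases before to 50 after the start covered 31 promoters of 29 of the 35 genes, since Ect2 and Prc1 have 2 starts each. CHR was found in 25 of these promoters (80.6%), against 19.2% of all 32851 promoters in the table. The CCAAT box was found in 24 (77.4%), against 37.4% of all promoters, and both in 22 (71.0%), against 7.52%. No CHR match overlapped a CCAAT match. These are matches of letters, not measured binding.

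**Figure D1:**
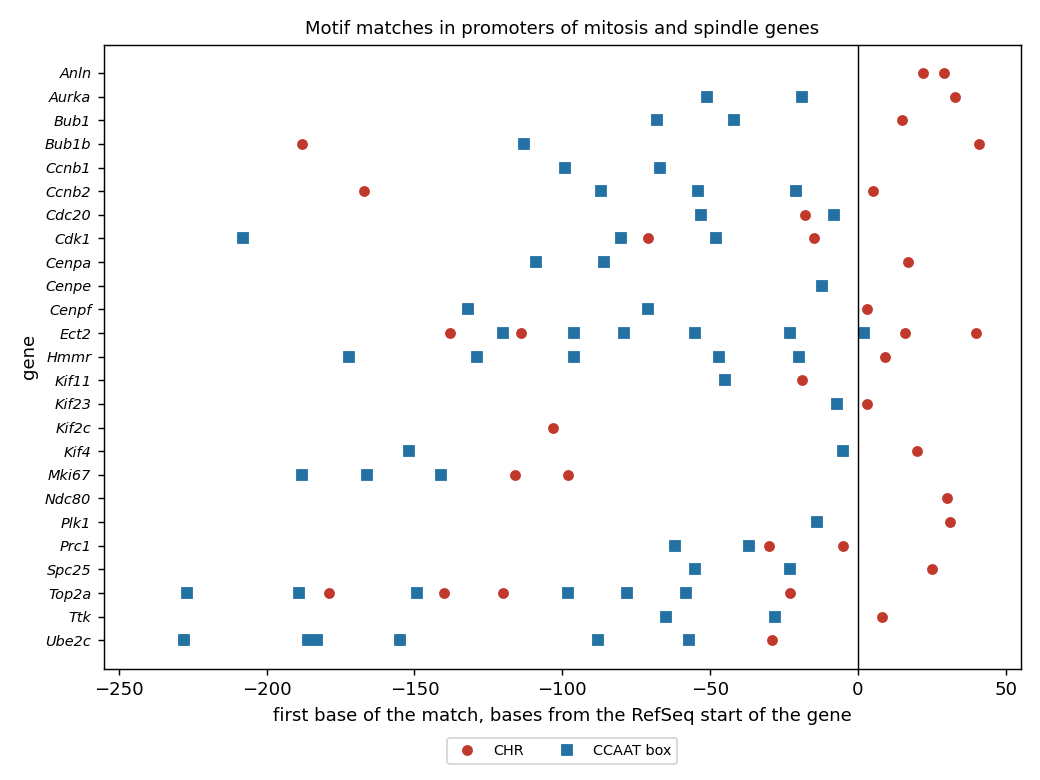
Positions of CHR matches (red circles) and CCAAT matches (blue squares) in the promoters of mitosis and spindle genes with at least 1 match; the x axis is the first base of the match in bases from the RefSeq start, each row is a gene, and Ect2 and Prc1 combine 2 starts. In Kif11 the CHR match stands at -19 and the CCAAT match at -45.

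The comparison asked how the mitotic programme of fibroblasts without Cebpg differs from that of WT fibroblasts. Of the 34 genes Kif11 alone fell in Cebpg-/- cells and none rose (limma fit over all probe sets, Benjamini-Hochberg adjustment over 18193 genes, threshold 0.05). That is 2.94% of the set, where 12.6% of all genes were called, 3.99% of them lower and 8.62% higher. The median change of the set was -0.08 on the log2 scale, Cebpg-/- minus WT, and that of all genes 0.00 (-0.00092). Changes lay below 0 in 29 of the 34 genes (85.3%), against 50.3% of all genes. With each array's median subtracted from its values, 21 of the 34 lay below 0. In that fit the median change of all genes moved to 0.034, and that of the set was -0.041.

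In the probe set chosen for each gene the changes were also bounded closely. The 95% limma intervals of all 34 genes lay between -0.49 and 0.44, that is between 71.3% and 136% of the WT level, and so each stayed within 0.5 log2 units of 0. Among all genes 85.8% had such an interval. Intervals of some other probe sets of the 34 genes reached further, down to -1.33 for Kif11, -0.78 for Cenpf and -0.70 for Cenpe. The intervals hold for 1 gene at a time, and RMA compresses changes. Without an adjustment for multiple tests, 4 of the 34 (11.8%) had a p under 0.05, all lower in Cebpg-/-, where 28.4% of all genes did and 10.9% did so on the lower side.

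**Figure D2:**
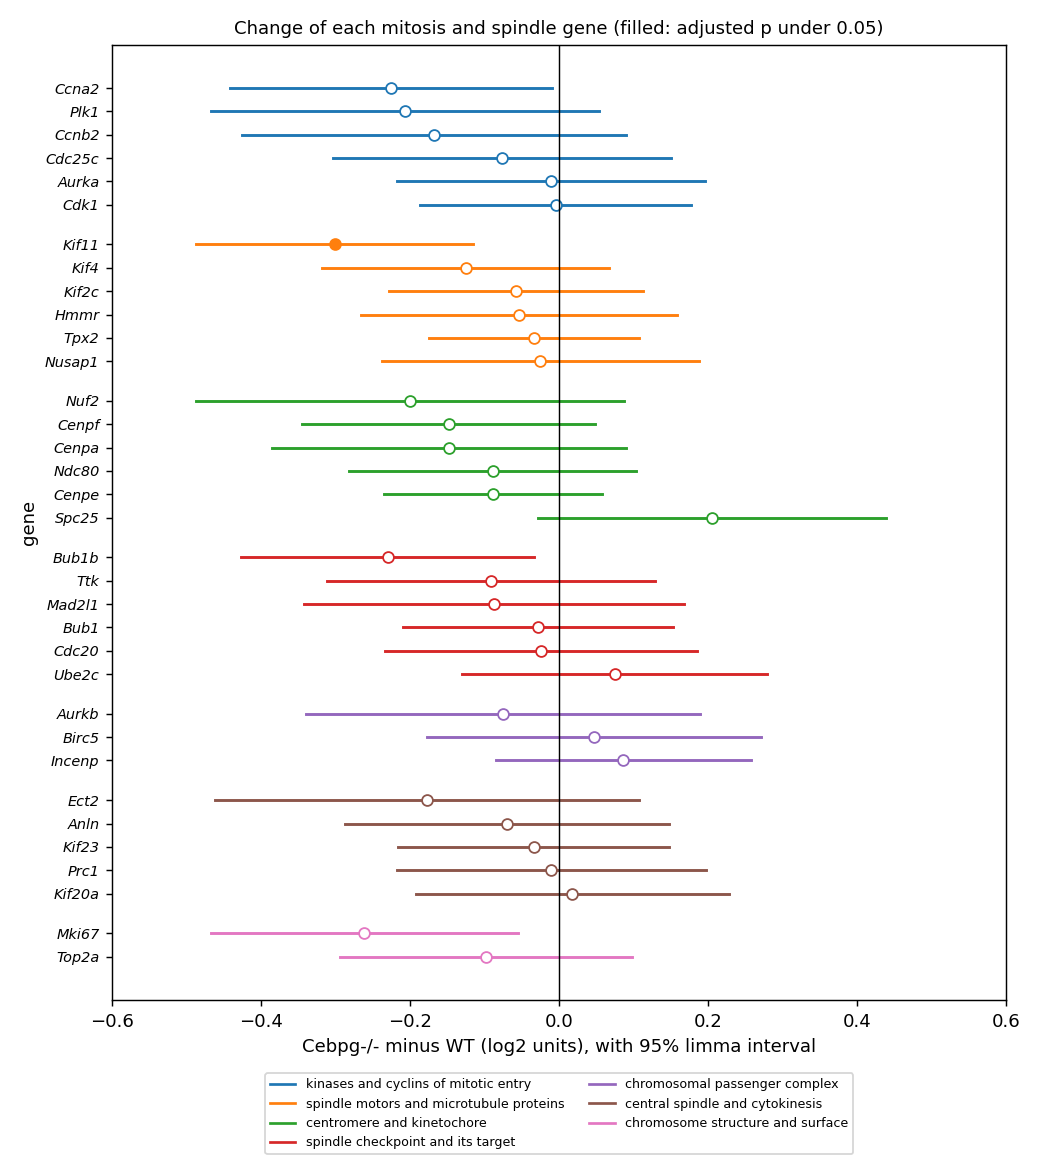
Change of each of the 34 genes, Cebpg-/- minus WT in log2 units (points), with its 95% limma interval (lines), grouped by role; the filled point has an adjusted p under 0.05. Kif11 at -0.30 is the filled point, and every interval stays between -0.49 and 0.44.

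Spindle motors and microtubule proteins include the gene that fell. Kif11 encodes the kinesin that pushes spindle poles apart. It read 5.86, 6.19, 6.05 and 6.03 on Cebpg-/- replicates 1 to 4, against 6.29, 6.39, 6.20 and 6.46 on WT replicates 1 to 4. All 4 Cebpg-/- values lay below all 4 WT values, although Cebpg-/- replicate 2 (6.19) and WT replicate 3 (6.20) nearly touch. Among all genes 19.5% were separated without overlap, 6.74% with Cebpg-/- below and 12.8% with Cebpg-/- above, and among the 34 it was Kif11 alone (2.94%). The change was -0.30 ± 0.08 (SE), or 81.1% of the WT level, with an adjusted p of 0.0419 in limma. The other probe sets of Kif11 had changes of -0.19 and -0.59, which did not pass (limma, unadjusted p = 0.0608 and 0.106).

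The Kif11 call rested on the particular arrays. It passed without Cebpg-/- replicate 2 or without WT replicate 3. It was lost without Cebpg-/- replicate 1 (adjusted p = 0.109), 3 (0.0925) or 4 (0.0891) and without WT replicate 1 (0.0832), 2 (0.0871) or 4 (0.0749), limma in each case. The change itself ran from -0.35 to -0.24 over these 8 fits.

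None of the other 5 genes of this role passed. They are Kif4, a chromosome-bound kinesin, at -0.13, Kif2c, which takes microtubules apart at the kinetochore, at -0.06, Hmmr at -0.05, Tpx2, the activator of Aurora A on spindle microtubules, at -0.03, and Nusap1 at -0.03. Tpx2 had the tightest interval of them, from -0.17 to 0.11.

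None of the 6 measured cyclins, kinases and phosphatases of mitotic entry passed; all 6 changes lay below 0, with a median of -0.12. Ccna2 (cyclin A2, partner of CDK1 and CDK2) read 7.80, 8.26, 7.98 and 8.01 on Cebpg-/- replicates 1 to 4, against 8.23, 8.39, 8.17 and 8.16 on WT replicates 1 to 4. The groups overlap through Cebpg-/- replicate 2, the highest of its group. The change was -0.23 ± 0.10 (SE) and did not pass (limma, adjusted p = 0.159); its other probe set gave -0.15.

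Cdk1, the kinase that drives entry into mitosis, averaged 8.98 ± 0.12 in Cebpg-/- and 8.99 ± 0.12 in WT (SD, n = 4 each), with an interval of the difference from -0.19 to 0.18. Ccnb2 (cyclin B2) stood at -0.17, Cdc25c, the phosphatase that activates CDK1, at -0.08 and Aurka (Aurora A, which matures centrosomes) at -0.01. Plk1 (polo-like kinase 1) read 6.87, 7.51, 7.16 and 7.02 in Cebpg-/- replicates 1 to 4, against 7.34, 7.32, 7.37 and 7.36 in WT replicates 1 to 4. The Cebpg-/- values of Plk1 spread on both sides of the WT values (SD 0.27 in Cebpg-/-, 0.02 in WT), and the change of -0.21 did not pass.

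At the centromere and kinetochore no gene passed. Nuf2 and Ndc80 form the arm that grips the microtubule end, and Spc25 belongs to the other end of the same complex. Nuf2 read 6.56, 7.18, 6.97 and 6.81 on Cebpg-/- replicates 1 to 4, against 7.15, 7.25, 7.06 and 6.87 on WT replicates 1 to 4. The change was -0.20 ± 0.13 (SE; limma, adjusted p = 0.338), and the ranges overlap widely.

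Spc25 stood on the other side of 0, with 7.32, 7.60, 7.55 and 7.42 on Cebpg-/- replicates 1 to 4, against 7.24, 7.53, 7.28 and 7.02 on WT replicates 1 to 4. Its change of 0.21 was the highest of the set and did not pass either (limma, adjusted p = 0.230). Its partner Ndc80 stood at -0.09. Cenpa, the histone variant that marks centromeres, Cenpf and Cenpe, a kinetochore motor, stood at -0.15, -0.15 and -0.09. A dimmer probe set of Cenpa, on the other hand, fell by 0.41 (3.62, 3.80, 3.81 and 3.48 on Cebpg-/- replicates 1 to 4, against 4.09, 3.91, 4.11 and 4.26 on WT replicates 1 to 4; limma, adjusted p = 0.0290 over all probe sets). It was the only one of the 73 that passed over all probe sets, where Kif11 lay at 0.0569.

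Genes of the spindle checkpoint delay anaphase by holding CDC20, which activates the anaphase-promoting complex. Bub1b (BUBR1, part of the inhibitor itself) read 6.03, 6.40, 6.18 and 6.03 on Cebpg-/- replicates 1 to 4, against 6.39, 6.44, 6.45 and 6.29 on WT replicates 1 to 4. Cebpg-/- replicate 2 lay within the WT range and the other 3 below it. The change was -0.23 ± 0.09 (SE; limma, adjusted p = 0.118), and its other probe sets gave -0.21 and -0.17. Bub1 (a checkpoint kinase), Mad2l1 (MAD2) and Ttk (the kinase MPS1) stood at -0.03, -0.09 and -0.09. Cdc20 stood at -0.02 and Ube2c, the ubiquitin-conjugating enzyme of the anaphase-promoting complex, at 0.07.

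The chromosomal passenger complex, which corrects faulty attachments and later moves to the midzone, had changes on both sides of 0. Its kinase Aurkb (Aurora B) read 6.14, 6.67, 6.29 and 6.31 on Cebpg-/- replicates 1 to 4, against 6.49, 6.62, 6.36 and 6.23 on WT replicates 1 to 4, a change of -0.08 ± 0.12 (SE; limma, adjusted p = 0.722). The highest and the lowest of these 8 values are both Cebpg-/-. Birc5 (survivin) stood at 0.05 and Incenp, the scaffold, at 0.09.

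Genes of the central spindle and of cytokinesis did not pass. Ect2, which activates RHOA at the division plane, read 6.46, 6.94, 6.93 and 6.63 on Cebpg-/- replicates 1 to 4, against 6.996, 7.16, 6.78 and 6.73 on WT replicates 1 to 4. The change was -0.18 ± 0.13 (SE; limma, adjusted p = 0.396). Anln (anillin, a scaffold of the contractile ring) stood at -0.07, the midzone kinesins Kif23 and Kif20a at -0.03 and 0.02, and Prc1, which bundles midzone microtubules, at -0.01.

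The genes of chromosome structure are Mki67, which encodes the proliferation marker Ki-67 that coats mitotic chromosomes, and Top2a, which untangles sister DNA. Mki67 read 7.61, 7.87, 7.87 and 7.68 on Cebpg-/- replicates 1 to 4, against 8.002, 8.23, 7.96 and 7.87 on WT replicates 1 to 4. The groups meet at Cebpg-/- replicates 2 and 3 and WT replicate 4. The change was -0.26 ± 0.09 (SE), 83.4% of WT, and did not pass (limma, adjusted p = 0.0937). Top2a averaged 8.60 ± 0.16 in Cebpg-/- and 8.70 ± 0.11 in WT (SD, n = 4 each).

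**Figure D3:**
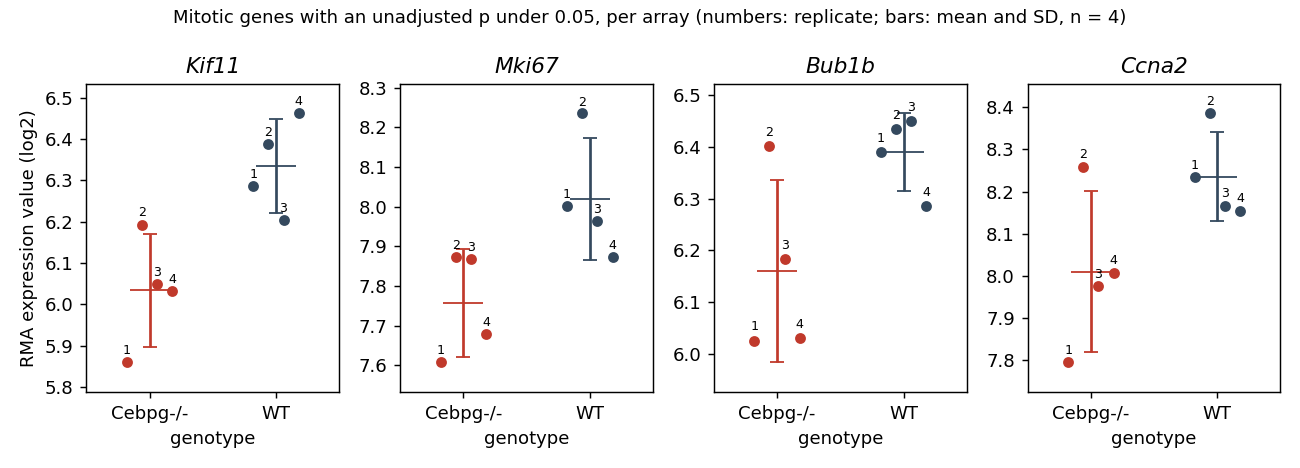
RMA values (log2, y axes differ and do not start at 0) of Kif11, Mki67, Bub1b and Ccna2 on each array, Cebpg-/- in red and WT in dark blue-grey, with the mean and SD of 4 arrays; small numbers give the replicate. Cebpg-/- replicate 1 is the lowest array for all 4 genes, and Cebpg-/- and WT are fully separated in Kif11 only.

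Of the 34 genes 22 have more than 1 probe set, with 39 further probe sets in all. Of these, 25 lay above the median of all values, 20 of them with a change below 0 and 5 above. The Cenpa probe set named above was the only one of the 39 that passed.

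The genes moved together from array to array. The mean over the 34 genes was 7.16, 7.56, 7.39 and 7.29 on Cebpg-/- replicates 1 to 4, against 7.44, 7.54, 7.42 and 7.33 on WT replicates 1 to 4. The range of single arrays within a genotype was 0.39 in Cebpg-/- and 0.21 in WT, with a pooled SD of 0.13. The difference between the genotype means was -0.08, a measure that cannot be set directly against a range of single arrays. Cebpg-/- replicate 2 held the highest mean of all 8 arrays and Cebpg-/- replicate 1 the lowest.

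Single genes followed these arrays closely. Cebpg-/- replicate 1 was the lowest Cebpg-/- array in 33 of 34 genes (the exception is Cdc25c), against 25.2% of all genes. It was the lowest of all 8 arrays in 28 of the 34, against 14.1% of all genes. Cebpg-/- replicate 2 was the highest Cebpg-/- array in 32 (not in Cenpf and Anln), against 29.8% of all genes. In WT, replicate 2 was the highest array in 25 genes and replicate 4 the lowest in 27, against 31.4% and 37.3% of all genes.

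In WT, Kif11, Plk1, Ttk, Kif20a, Kif23 and Tpx2 had neither their highest value on replicate 2 nor their lowest on replicate 4. The SD was larger among Cebpg-/- than among WT arrays in 29 of 34 genes (85.3%), against 43.6% of all genes, with median SDs of 0.17 in Cebpg-/- and 0.11 in WT.

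**Figure D4:**
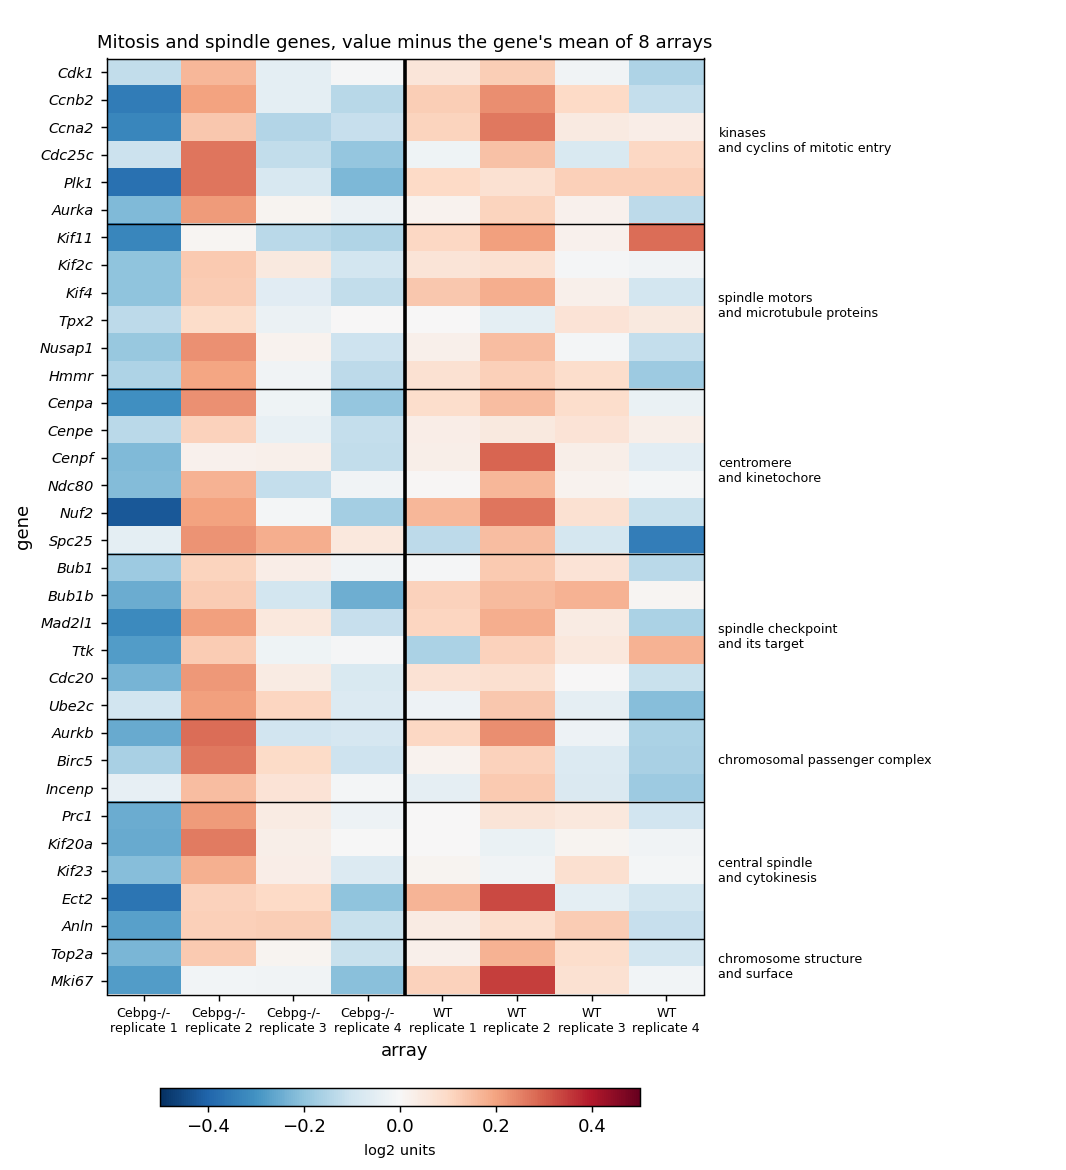
Heat map of the 34 genes (rows, grouped by role) on the 8 arrays (columns, Cebpg-/- left of the black line, WT right); colour is the value minus the gene's mean over 8 arrays in log2 units. The column of Cebpg-/- replicate 1 is blue and that of Cebpg-/- replicate 2 red almost throughout.

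The result for the whole set changed when either of these Cebpg-/- arrays was left out. Without Cebpg-/- replicate 1 its median change was -0.01, with 19 genes below 0 and 15 above. No gene of the set passed, where 6.59% of all genes did. Without Cebpg-/- replicate 2 the median was -0.15, with 31 below 0, and 4 genes fell (Bub1b, Ccna2, Kif11 and Plk1, limma with the same threshold). Of all 18193 genes 13.8% were called in that fit, 821 of them lower and 1689 higher. No gene of the set was called higher in any of the 8 fits that leave out 1 array.

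Within Cebpg-/-, genes of other cells in the cultures had their extremes on the same arrays, replicates 1 and 2. The mean of 18 leukocyte markers was 7.55, 4.96, 6.89 and 6.50 on Cebpg-/- replicates 1 to 4, against 3.66, 5.47, 5.36 and 5.54 on WT replicates 1 to 4. Within Cebpg-/- the order of the arrays is the reverse of that of the mitotic genes for the highest and the lowest array. WT replicate 1, the lowest of the WT arrays for leukocyte markers, is the second highest of them for mitotic genes. WT replicates 2 and 4, the highest and the lowest WT arrays for mitotic genes, lay close together for leukocyte markers (5.47 and 5.54). The part of these markers in the result for the mitotic genes was not tested beyond the fits below. All 18 markers had a change above 0, with a median of 1.52, and 1 of them, Cd14, passed (5.56%, against 12.6% of all genes). Of the 18, 14 had an unadjusted p under 0.05 in limma, where 28.4% of all genes did. The groups overlapped in all 18. No marker was listed at 0. Ptprc, the pan-leukocyte marker, ran from 2.95 to 5.93 in Cebpg-/- and from 1.73 to 4.07 in WT.

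The leukocyte mean itself differed between the genotypes (6.48 in Cebpg-/-, 5.01 in WT), so as a covariate it takes up part of the genotype difference. With it the median change of the 34 genes was 0.04, with 25 above 0 and 9 below, and none passed. Under this fit 1.91% of all genes were called. Kif11 stood at -0.23 (limma, adjusted p = 0.353) and Mki67 at -0.20, while Ccna2 at -0.08 and Bub1b at -0.10 were closer to 0 than without the covariate. Without replicate 1 of both genotypes, the arrays with the extreme leukocyte means, the median of the 34 was 0.00 (0.003), with 17 genes on each side. None was called, where 2.9% of all genes were, and Kif11 stood at -0.26 (limma, adjusted p = 0.184). Fibroblast markers were bright throughout, with a mean over 13 genes of 8.94 ± 0.19 in Cebpg-/- and 9.21 ± 0.16 in WT (SD, n = 4 each). In the main fit, with genotype as the only term, 5 of them (Col1a1, Col1a2, Col3a1, Pdgfrb and Fap) fell and none rose. That is 38.5% of the 13, where 12.6% of all genes were called, 3.99% of them lower and 8.62% higher. Of the 13 changes 9 lay below 0 and 4 above, between -1.05 for Col1a1 and 1.07 for Lum, which did not pass (limma, adjusted p = 0.104). The means of endothelial, epithelial, skeletal muscle, erythroid and neural markers lay between 1.74 and 4.04 on all arrays. Single genes could lie higher: the muscle marker Acta1 averaged 8.97 in Cebpg-/- and 8.96 in WT. In the main fit Esam (0.42) passed among 6 endothelial markers, Epcam (-0.34) among 6 epithelial and Tubb3 (-1.13) among 5 neural. That is 16.7%, 16.7% and 20% of these lists, against 12.6% of all genes. No muscle or erythroid marker passed.

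**Figure D5:**
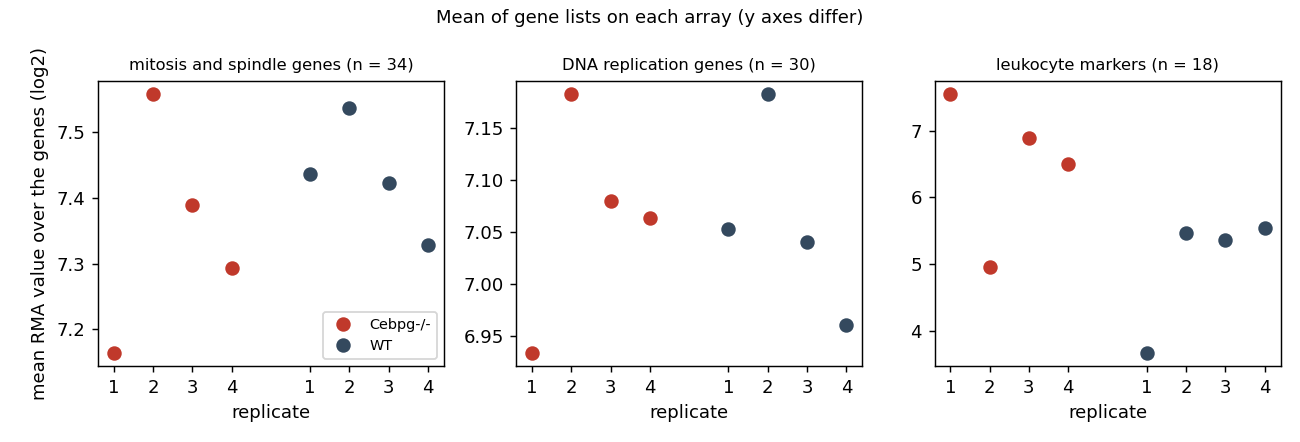
Mean RMA value (log2, y axes differ and do not start at 0) of the 34 mitosis and spindle genes, of 30 DNA replication genes and of 18 leukocyte markers on each array, Cebpg-/- in red and WT in dark blue-grey, by replicate. Cebpg-/- replicate 1 has the lowest mitotic mean (7.16) and the highest leukocyte mean (7.55).

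The rest of the cell cycle machinery was read from further lists that share no gene with the 34. For comparison, 12.6% of all genes were called, 8.62% higher and 3.99% lower. Of 32 measured kinetochore and centromere genes Mis12 rose (0.20; limma, adjusted p = 0.0362), none fell, and the median change was 0.00 (-0.0048). Of 27 spindle motors, microtubule proteins and cytokinesis genes 2 rose and 1 fell (11.1% called). Kifc1, a kinesin that pulls spindle poles together and so works against Kif11, read 6.24, 6.39, 6.16 and 6.14 on Cebpg-/- replicates 1 to 4, against 5.65, 5.81, 5.73 and 5.69 on WT replicates 1 to 4. The groups lie clearly apart, with a change of 0.51 ± 0.07 (SE; limma, adjusted p = 0.00233). Psrc1, a protein of spindle microtubules, rose by 0.38 (limma, adjusted p = 0.0113). Kif15, a kinesin that can stand in for Kif11, fell by 0.36 (limma, adjusted p = 0.0219), but its only probe set, at 2.08 in Cebpg-/- and 2.44 in WT, lies under the median of all values.

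Of 20 genes of condensin, cohesin and their release Pttg1 rose and none fell, that is 5% called against 12.6% of all genes. Changes lay below 0 in 18 of the 20 (median -0.08), against 50.3% of all genes. Pttg1 encodes securin, which blocks separase until anaphase. It read 8.94, 8.70, 8.85 and 8.75 on Cebpg-/- replicates 1 to 4, against 8.33, 8.40, 8.54 and 8.41 on WT replicates 1 to 4, a change of 0.39 ± 0.07 (SE; limma, adjusted p = 0.00842), and a dimmer probe set also rose (0.36, adjusted p = 0.0179 over all probe sets). Here Cebpg-/- replicate 1 is the highest array, unlike in the 34 genes.

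Of 15 genes of the anaphase-promoting complex 2 subunits rose (Anapc10 at 0.21, Anapc7 at 0.19) and Cdc16 fell (-0.23), with adjusted p of 0.0286, 0.0433 and 0.0436 (limma). That is 20% of the list, against 12.6% of all genes. None of 23 genes of mitotic entry and checkpoint control passed. Of them 6 had an unadjusted p under 0.05 in limma, where 28.4% of all genes did. Plk4, the kinase that starts centriole duplication, was lowest at -0.39 (limma, adjusted p = 0.0548). The genes of this list show the same Cebpg-/- arrays as extremes. Their mean was 6.49, 6.80, 6.67 and 6.60 on Cebpg-/- replicates 1 to 4, against 6.699, 6.749, 6.645 and 6.653 on WT replicates 1 to 4. In WT replicate 2 was again the highest, but replicate 3 the lowest.

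DNA replication genes, expressed one phase earlier, gave 1 call of 30, a fall of Cdc45, and a median change of 0.00 (0.0023). The call is 3.33% of the list, against 12.6% of all genes. Their mean was 6.93, 7.18, 7.08 and 7.06 on Cebpg-/- replicates 1 to 4, against 7.05, 7.18, 7.04 and 6.96 on WT replicates 1 to 4. Cebpg-/- replicate 1 is the lowest array here too, and replicate 2 the highest in both genotypes.

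Among 24 measured transcription factors of cell cycle genes 2 rose, none fell and 22 did not pass. Foxm1, the activator of G2 and mitosis genes, read 4.43, 4.81, 4.69 and 4.76 on Cebpg-/- replicates 1 to 4, against 4.98, 4.95, 5.03 and 4.84 on WT replicates 1 to 4. The groups do not overlap, and the change of -0.27 ± 0.09 (SE) did not pass (limma, adjusted p = 0.0647). It passed after quantile normalization (-0.35, adjusted p = 0.0421), with array weights (adjusted p = 0.0417) and without Cebpg-/- replicate 2 (adjusted p = 0.0443). It was smaller with the leukocyte covariate (-0.15; limma, adjusted p = 0.525), without both arrays of replicate 1 (-0.18, 0.258) and with averaged probe sets (-0.03, 0.817). Its next probe set gave 0.22 in the opposite direction, so the probe sets disagree. Mybl2 (B-MYB) averaged 4.53 ± 0.18 in Cebpg-/- and 4.56 ± 0.06 in WT (SD, n = 4 each), and Lin9, a MuvB subunit, stood at -0.16 (limma, adjusted p = 0.240).

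The 2 factors that rose are 8.33% of the list, where 8.62% of all genes rose. Cdkn1a (p21, an inhibitor of cyclin-dependent kinases) read 10.58, 10.35, 10.41 and 10.54 on Cebpg-/- replicates 1 to 4, against 9.86, 9.73, 9.96 and 10.09 on WT replicates 1 to 4, a change of 0.56 ± 0.09 (SE; limma, adjusted p = 0.00364). Rb1 (the retinoblastoma protein) rose by 0.50 ± 0.07 (SE; limma, adjusted p = 0.00291). Both passed in all 8 fits that leave out 1 array. With the leukocyte mean as a covariate neither passed in limma (0.47, adjusted p = 0.0640 for Cdkn1a, and 0.41, 0.0519 for Rb1). In that fit 1.91% of all genes were called, and the covariate itself differed between the genotypes.

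Calls in these further lists differed in how far they rested on single arrays. Kifc1, Psrc1 and Pttg1 passed in all 8 fits that leave out 1 array, Kif15 in 5, Anapc10 and Cdc45 in 4, Mis12 and Cdc16 in 2 and Anapc7 in 0. With the leukocyte mean as a covariate Kifc1 alone of these 9 genes passed (0.55; limma, adjusted p = 0.0243). Under that fit Psrc1 stood at 0.33 (adjusted p = 0.141), Pttg1 at 0.27 (0.127), Kif15 at -0.24 (0.276) and Cdc45 at -0.27 (0.281), all in limma. Adjusted p-values of Mis12, Anapc10, Anapc7 and Cdc16 were 0.325, 0.265, 0.175 and 0.394 in the same limma fit. Without both arrays of replicate 1 Kifc1 again passed alone (limma, adjusted p = 0.0358), with Psrc1 at 0.0782 and Pttg1 at 0.0764. With averaged probe sets Psrc1 did not pass (0.26; limma, adjusted p = 0.0549), nor did Anapc7 (0.296) and Cdc16 (0.357).

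The targeted gene was read from 3 probe sets. The second brightest probe set of Cebpg averaged 5.53 ± 0.12 in Cebpg-/- and 6.32 ± 0.07 in WT (SD, n = 4 each; limma, adjusted p = 0.000593 over all probe sets), and the brightest 6.60 ± 0.11 in Cebpg-/- and 6.78 ± 0.16 in WT (adjusted p = 0.275). The dimmest averaged 3.05 ± 0.10 in Cebpg-/- and 2.80 ± 0.14 in WT, with all 4 Cebpg-/- values above all 4 WT values; its change was 0.26, with an adjusted p of 0.0942 over all probe sets in limma. The sources used here do not say which probe sets fall within the deletion.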

How the data were processed

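Each array's log2 values were deposited by the authors. The submitters' processing notes name RMA; its version is not given in the sources used here. As a rule RMA subtracts background, applies quantile normalization and combines the probes of a set, and it compresses the changes of dim sets. Of 45101 probe sets 64 controls were left out. The platform's annotation names 1 gene for 34945 of the others, with symbols updated through a RefSeq table (GRCm38.p6), and the brightest probe set stood for each gene.

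Groups came from the sample titles. All 45037 probe sets entered 1 limma fit (version 3.58.1, R 4.3.3; lmFit and eBayes with genotype as the only term), and p-values were adjusted over 18193 genes. The fit was tested on simulated data. The number of arrays limits the precision. Members and lists were chosen with earlier results of these data known. Values on every array are given for members with an unadjusted p under 0.05 or groups that do not overlap. They are also given for the 3 with the largest residual SD (Nuf2, Ect2 and Aurkb). Plk1 and Spc25, a dim Cenpa probe set, Plk4, Ptprc and Acta1 were singled out after their values were seen. Of other lists, up to 3 called genes with the lowest p are named, with Cebpg, Foxm1, Mybl2, Cdkn1a, Rb1 and Lin9. Some listed genes, Ccnb1 among them, were not analysed here.

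The alternatives tried were a renewed quantile normalization, array medians subtracted, dim probe sets left out, averaged probe sets per gene, a variance trend, weighted arrays, a block for the replicate number, the leukocyte marker mean as a covariate, a threshold of 0.1, leaving out each array and leaving out both arrays of replicate 1. Leaving out both arrays of replicate 2 was added after seeing the data.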

Additional observations from a re-analysis of the deposited data

Results flagged for a closer look

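Gaps between arrays of 1 genotype were compared with Dixon's 95% limit in 142 groups of 4 values, the genes named and the list means, where chance alone marks about 1 in 20. Here 4 were marked. Hmmr read 7.06 on WT replicate 4, where the other WT arrays lay between 7.32 and 7.36. Ndc80 read 5.81 on WT replicate 2, with the others between 5.63 and 5.66, and Anapc7 read 7.46 on WT replicate 2, with the others between 7.56 and 7.58. The mean of the leukocyte markers was 3.66 on WT replicate 1, with the other WT arrays between 5.36 and 5.54.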

How the results depend on the processing

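The call of 1 lower gene among the 34 was not stable. No member was called lower with array medians subtracted (0), averaged probe sets per gene (0), the leukocyte covariate (0) or both arrays of replicate 1 left out (0), 2 were at the threshold of 0.1 (Mki67 besides Kif11), 3 without both arrays of replicate 2 (Bub1b, Kif11 and Plk1), and 0 to 4 when 1 array was left out. Of all genes, 19.9% were called at the threshold of 0.1, 15.2% with array medians subtracted, 10.9% with averaged probe sets and 1.91% with the covariate. Without both arrays of replicate 1 it was 2.9%, and without both of replicate 2 12.1% (739 genes lower and 1465 higher). No member was called higher under any alternative run. The median of the set lay between -0.15 and -0.01 when 1 array was left out, and turned above 0 with the leukocyte covariate (0.04) and without both arrays of replicate 1 (0.003). Over all genes, 1569 were higher and 726 lower: 236 and 111 with the covariate, 346 and 182 without both arrays of replicate 1, 780 to 1689 and 394 to 965 when 1 array was left out, and 1266 lower at 0.1. Of the calls 68.4% were higher, 56.7% after quantile normalization and 78.9% after subtracting medians. Of the 34 changes 5 lay above 0, and 25 did with the covariate, 17 without both arrays of replicate 1 and 13 with medians subtracted. With medians subtracted the median change of all genes was itself above 0 (0.034), and that of the set was -0.041. Among genes described with their tests, signs turned in 3 that did not pass: Aurkb (0.13 with the covariate, 0.018 without both arrays of replicate 1), Nuf2 (0.0182 with the covariate) and Mybl2 (0.0077 with medians subtracted, 0.0112 with averaged probe sets, 0.10 with the covariate, 0.058 without both arrays of replicate 1, and -0.091 to 0.045 when 1 array was left out). The causes were not tested.

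With the replicate number as a block, 0 members were called lower (Kif11, limma adjusted p = 0.0571), and 978 genes were higher and 491 lower. The labels do not say that equal numbers pair the samples. Over genes, deviations of equally numbered arrays had correlations of -0.36, 0.15, 0.02 and 0.05 for replicates 1 to 4. Those of unequal numbers ran from -0.39 (Cebpg-/- replicate 2 with WT replicate 4) to 0.44 (Cebpg-/- replicate 2 with WT replicate 1). Other differences between arrays can mask a pairing, so these values cannot decide whether samples were paired.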
